A study of Rattus norvegicus with 6 samples.

Results

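The TGF-beta, BMP and activin pathway was described in cultured skin and nerve precursors of newborn rats as a list of 51 genes in 5 roles: 18 ligands, 12 receptors and co-receptors, 9 antagonists, 8 Smads and 4 Id genes. A gene was measured when a probe set of the array carried its symbol and no other. This held for 48 of the 51, among 18166 genes in all, and each of the 48 had a single probe set. Gdf5, Tgfbr2 and Eng had no such probe set and were not analysed here. All 6 arrays came from wild-type Sprague-Dawley rats. Back skin gave 3 independent isolates of SKPs (skin-derived precursors), which grew as spheres at 50000 cells/ml with 40 ng/ml FGF2 and 20 ng/ml EGF. Sciatic nerve gave 3 independent isolates of NSCPs (nerve-derived Schwann cell precursors), which grew on laminin (4 μg/ml) and poly-D-lysine (30 μg/ml) with forskolin (5 μM), an agent that raises cAMP, and neuregulin-1β (25 ng/ml). The labels give both media in 1 run-on sentence, which also names N2 supplement for NSCPs, B27, antibiotics and fungizone. The tissue of origin, the medium and the way of growth all differ between SKPs and NSCPs, so their parts cannot be told apart. The series title concerns paracrine signals of the nerve cells in digit tip regeneration, and the comparison asks which parts of this signalling system each culture expressed.

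Ligands of the TGF-beta family are secreted dimers that bring together type I and type II receptor kinases. TGF-betas and activins act mainly through Smad2 and Smad3, and BMPs through Smad1, Smad5 and Smad9, each with the shared partner Smad4. Secreted antagonists trap ligands outside the cell, Smad6 and Smad7 inhibit the receptors from within, and the Id genes are classical targets of BMP signals. In peripheral nerve TGF-beta is known to affect Schwann cell survival and maturation, and in skin BMPs are known to pattern dermis and hair follicles.

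Values are RMA expression values on the log2 scale, where a difference of 1 is a 2-fold change, and values of different genes are not set against each other. A difference is the NSCP mean minus the SKP mean with its standard error (SE). A gene is called higher or lower in NSCPs where limma's adjusted p was under 0.05 over all genes. The 95th percentile of 226 olfactory and vomeronasal receptor genes, 5.32, served as the background level. From 67.3% to 69.1% of genes on an array lay above it. The number of arrays, 3 in each group, limits the precision. Values of several arrays follow the order of replicates 1, 2 and 3.

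Markers of the labelled cells lay on the labelled side. All 10 Schwann cell markers analysed here were higher in NSCPs. The mean of the 10 ranged from 10.39 to 10.56 in NSCPs and from 6.65 to 6.79 in SKPs. Among 12 fibroblast and mesenchyme markers 11 were lower in NSCPs, and the mean of the 12 ranged from 7.09 to 7.40 there and from 11.42 to 11.51 in SKPs. NSCP means of 5 of the 12 were within background. Those of Col1a1 (11.80), Col1a2 (11.85) and Col3a1 (10.69) were lower than in SKPs but far above it, and Vim was not called. Macrophage and leukocyte markers were lower in 12 of 12, with means of 10.79, 9.74 and 10.13 in the SKP arrays and from 5.04 to 5.21 in NSCPs, where 8 of the 12 were within background. Adipocyte markers were lower in 7 of 8 (means from 7.73 to 8.19 in SKPs and from 5.02 to 5.52 in NSCPs). Pericyte and smooth muscle markers had 3 of 6 lower, with Cspg4 at -2.89. Endothelial markers went both ways among 8: Tek (1.91) and Emcn (0.47) were higher and Flt1 (-1.19) and Esam (-0.67) lower, with means of the 8 from 5.16 to 5.30 in SKPs and from 5.23 to 5.29 in NSCPs. In SKPs 6 of the 8 were within background, all but Flt1 (6.39) and Esam (6.30). The 5 keratinocyte markers had means from 5.17 to 5.55 in SKPs and from 5.53 to 5.94 in NSCPs, and Cdh1 was higher in NSCPs (1.08). SKP cultures therefore held RNA of leukocyte and adipocyte genes beside that of dermal genes, and the part of these cells in the results below was not tested.

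Most genes of the pathway differed between the cultures. Ligands, receptors, antagonists and Smads each had more genes lower than higher in NSCPs, while the Id genes were all higher. Of the 48 measured genes 35 were called (72.9%), against 43.7% of all genes tested. Genes lower in NSCPs made up most of this: 23 of 48 (47.9%, against 18.6% of all genes), while the share of the 12 higher ones (25.0%) was close to that of all genes (25.2%). Ligands had 9 lower and 2 higher among 17, receptors 5 lower and 2 higher among 10, antagonists 5 lower and 3 higher among 9, Smads 4 lower and 1 higher among 8, and Id genes 4 higher among 4. The median difference was -0.32 over the 48 and 0.14 over all genes. By role it was -0.73 for ligands, -0.56 for receptors, -0.65 for antagonists, -0.18 for Smads and 2.46 for Id genes.

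Brightness differed between the pathway and the array as a whole. Only Bmp5, Mstn and Smad9 were within background in both groups, against 4941 of 18166 genes. Among the genes above background in at least 1 group, 35 of the 45 pathway genes were called (77.8%), against 57.8% of 13225. There, 51.1% of the pathway genes were lower and 26.7% higher, against 25.6% and 32.2% of those 13225. Bmp3, Bmp4, Bmpr1b, Acvrl1, Nog, Chrdl1 and Grem1 passed this filter only through SKPs, which fixes the sign of their difference. No pathway gene passed only through NSCPs, so the excess of lower genes there is partly built in. The arrays of the groups did not overlap for 38 of the 48 genes, against 56.6% of all genes. Of these, 13 were higher and 25 lower in NSCPs, against 34.4% and 22.1% of all genes. Differences of at least 2-fold were called for 19 genes, 15 lower and 4 higher, against 17.4% of all genes in either direction. Of all 18166 genes, 1813 were lower and 1354 higher by at least 2-fold, so the array as a whole also leaned to lower genes at this size. NSCP means were within background for 10 genes: Bmp3, Bmp4, Bmp5, Mstn, Bmpr1b, Acvrl1, Nog, Chrdl1, Grem1 and Smad9. Fold changes of these 10 genes are therefore taken against a value near background. Other NSCP means lay only just above that level, among them those of Bmp7 (5.39), Inhba (5.51) and Bmp2 (5.53).

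**Figure D1:**
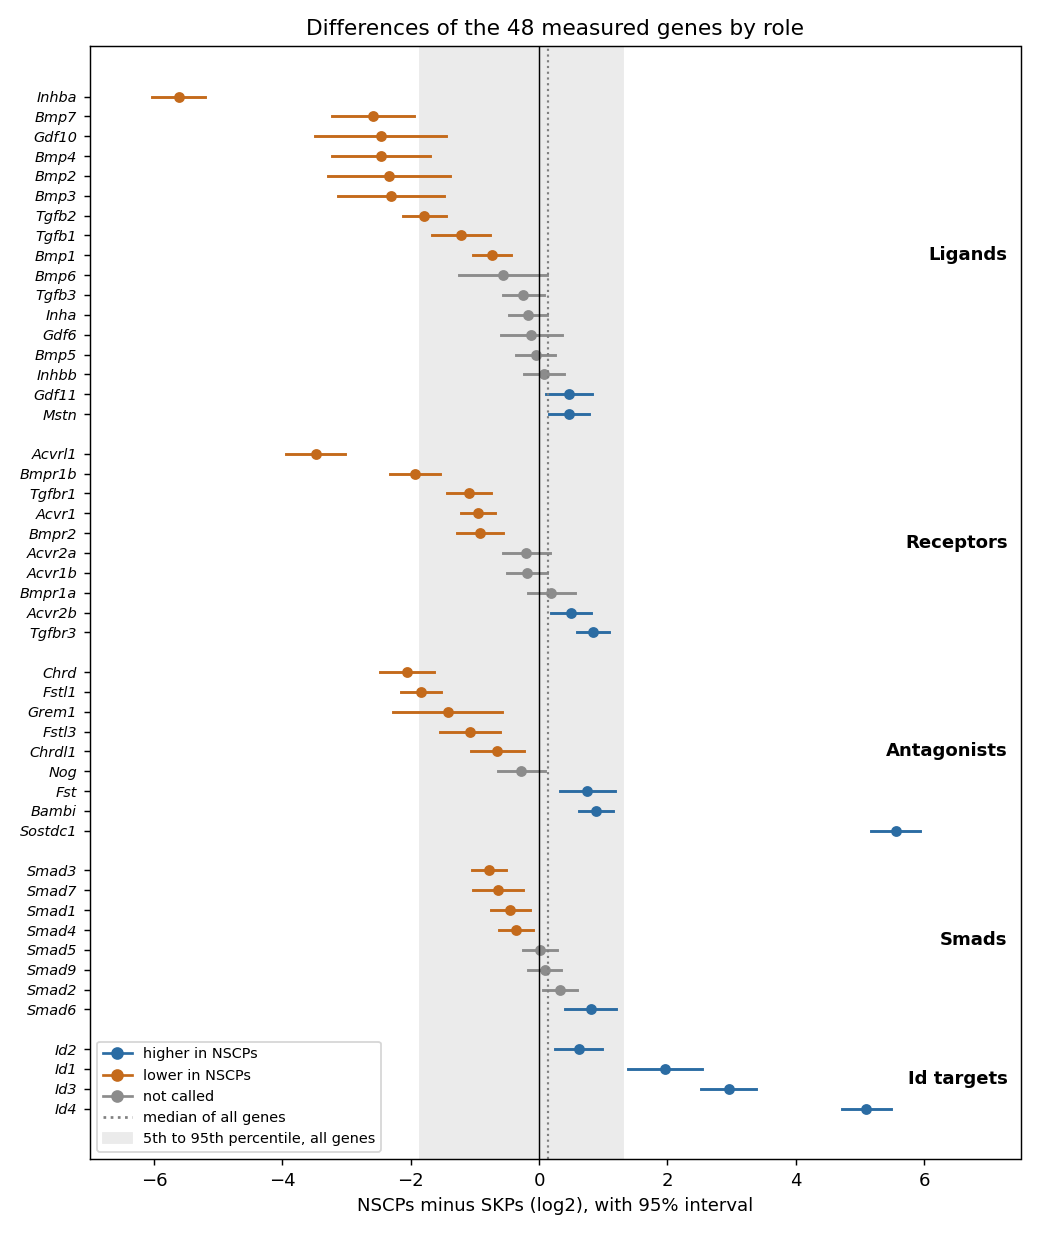
The x axis gives the difference between NSCPs and SKPs on the log2 scale, with its 95% interval, for the 48 measured genes grouped by role; the grey band spans the 5th to 95th percentile of all genes, from -1.85 to 1.31. Inhba, Acvrl1, Bmp2, Bmp3, Bmp4, Bmp7, Gdf10, Bmpr1b and Chrd lie to the left of the band, and Sostdc1, Id1, Id3 and Id4 to its right.

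Among the ligands, Inhba differed most. It encodes the beta A subunit of activin A, a dimer that acts through activin receptors and Smad2 and Smad3. Inhba was at 11.22, 10.82 and 11.33 in the SKP arrays and at 5.23, 5.67 and 5.64 in the NSCP arrays. Each NSCP array was near the background level and far below each SKP array. The difference was -5.61 (SE 0.18, adjusted p = 9.77e-08), a 48.9-fold lower value in NSCPs. In bulk RNA, fewer expressing cells and less RNA per cell cannot be told apart. The subunit genes Inhbb and Inha did not pass the test. Inhbb, of activin B, was at 7.16, 7.28 and 7.47 in SKPs and 7.45, 7.49 and 7.22 in NSCPs, with overlapping groups and a difference of 0.08 (95% interval -0.23 to 0.39). Inha, the inhibin alpha subunit, differed by -0.17 (95% interval -0.46 to 0.12).

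Among the BMP genes of the list, Bmp1, Bmp2, Bmp3, Bmp4 and Bmp7 were lower in NSCPs, and Bmp5 and Bmp6 were not called. Bmp3 and Bmp4 had means above background only in SKPs. Bmp7, a ligand of kidney, limb and skin development, was at 8.57, 7.34 and 8.0035 in SKPs and 5.20, 5.38 and 5.58 in NSCPs, a difference of -2.58 (SE 0.28, adjusted p = 1.03e-04). Bmp4, which patterns mesoderm and skin, was at 8.39, 7.12 and 7.36 against 5.34, 5.46 and 4.70, a difference of -2.46 (SE 0.33, adjusted p = 4.06e-04). Bmp2, a close relative of Bmp4 and an inducer of bone, was at 8.40, 6.74 and 8.47 against 5.47, 5.29 and 5.83, a difference of -2.34 (SE 0.42, adjusted p = 0.00203). In all 3 the lowest SKP array was replicate 2, which still lay above every NSCP array. Bmp3, a member that opposes other BMPs, was at 7.32, 6.02 and 7.41 in SKPs and 5.04, 4.48 and 4.31 in NSCPs (-2.31, SE 0.36, adjusted p = 9.38e-04). Gdf10, a relative of Bmp3, was at 7.83, 9.43 and 7.60 against 5.47, 6.34 and 5.67 (-2.46, SE 0.45, adjusted p = 0.00222). Gdf10 thus had its highest SKP value in replicate 2, the array in which Bmp2, Bmp3, Bmp4 and Bmp7 were lowest.

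TGF-beta isoforms differed less. Tgfb2 was 3.46-fold lower in NSCPs (-1.79, SE 0.15, adjusted p = 1.92e-05) and Tgfb1 2.32-fold lower (-1.21, SE 0.20, adjusted p = 0.00121). Both stayed well above background in NSCPs, with means of 7.72 and 9.01. Tgfb3 was at 7.12, 7.55 and 7.23 in SKPs and 7.06, 7.06 and 7.04 in NSCPs. Its groups did not overlap, yet its difference of -0.25 did not pass (95% interval -0.56 to 0.07, adjusted p = 0.183). Bmp1, listed with the ligands by name, encodes a metalloproteinase that matures procollagen and frees BMPs from chordin. It was 1.66-fold lower (-0.73, SE 0.13, adjusted p = 0.00209). Bmp6, Gdf6 and Bmp5 did not pass (-0.56, -0.12 and -0.05). SKP replicate 2, at 7.36, stood above the other 5 arrays for Bmp6, which lay between 5.89 and 6.18.

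Gdf11 and Mstn, a closely related pair of ligands, were the 2 called higher in NSCPs. Gdf11 had means of 8.20 in SKPs and 8.67 in NSCPs (0.47, adjusted p = 0.0424), and Mstn, which restrains muscle growth, was within background in both groups (0.47, adjusted p = 0.0220). Both calls were fragile: 0 ligands were called higher without SKP replicate 1, NSCP replicate 1 or NSCP replicate 3, and 1 without SKP replicate 2, SKP replicate 3 or NSCP replicate 2. At an unadjusted p under 0.05 limma gave 2 higher ligands over the 6 arrays. The 9 lower ligands were called whichever array was left out. Leukocyte, fibroblast and adipocyte markers moved with them.

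**Figure D2:**
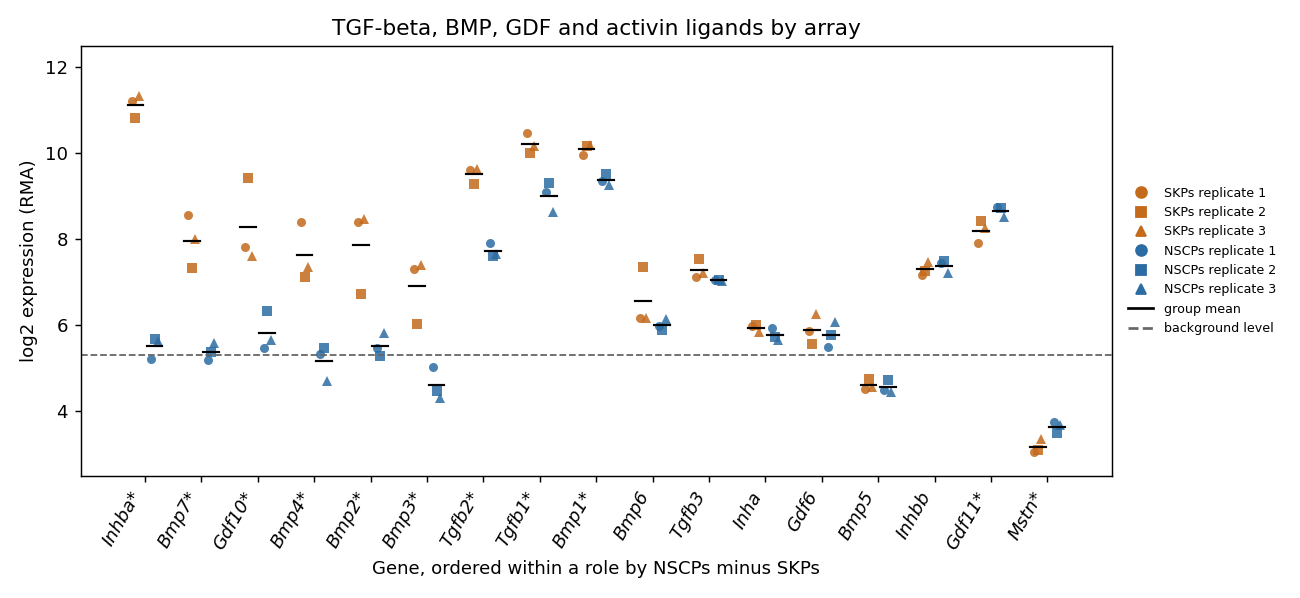
The y axis gives log2 expression (RMA) of the 17 measured ligands on each of the 6 arrays, with black lines for group means, a dashed line at the background level of 5.32 and an asterisk for called genes. The NSCP points of Inhba, Bmp7, Bmp4, Bmp2 and Bmp3 lie near or below the dashed line, and the SKP points of Bmp2, Bmp3, Bmp4, Bmp7 and Gdf10 are spread.

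Receptors were lower in NSCPs in 5 of 10 and higher in 2. Acvrl1, a type I receptor for BMP9 and BMP10 that is best known from endothelium, differed most. It was at 8.16, 8.60 and 8.54 in SKPs and 4.55, 5.08 and 5.23 in NSCPs, a difference of -3.48 (SE 0.20, adjusted p = 2.43e-06). Every NSCP array lay below the background level. Of the 8 endothelial markers measured, Flt1 and Esam were lower in NSCPs as Acvrl1 was, Tek and Emcn were higher, and 4 were not called. Cdh5, Tie1, Emcn, Cldn5 and Vwf were within background in both groups, and the part of endothelial cells in the Acvrl1 difference was not tested. Bmpr1b, a type I BMP receptor of cartilage and limb, was at 6.78, 6.62 and 6.87 against 4.47, 5.05 and 4.96, a difference of -1.93 (SE 0.17, adjusted p = 3.19e-05).

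Among the other receptors, Tgfbr1, Acvr1 and Bmpr2 were about 2-fold lower in NSCPs, while Bmpr1a, Acvr2a and Acvr1b did not pass. Tgfbr1, the type I receptor of TGF-beta, was at 10.16, 9.85 and 9.87 in SKPs and 8.95, 8.62 and 9.01 in NSCPs (-1.09, SE 0.15, adjusted p = 4.78e-04). Acvr1, a type I receptor for BMPs, was at 9.81, 9.90 and 9.90 against 8.86, 9.02 and 8.88 (-0.95, SE 0.11, adjusted p = 2.00e-04). Bmpr2, the type II BMP receptor, was at 11.25, 11.40 and 11.32 against 10.61, 10.07 and 10.52 (-0.92, SE 0.16, adjusted p = 0.00169). In these 3 the groups were clearly apart and both were well above background. Tgfbr3 went the other way. It encodes betaglycan, a co-receptor that presents TGF-beta2 and binds inhibin, and was at 10.53, 10.52 and 10.43 in SKPs and 11.30, 11.35 and 11.36 in NSCPs (0.84, SE 0.11, adjusted p = 3.25e-04).

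Bmpr1a, the other common type I BMP receptor, was at 9.72, 9.76 and 9.73 in SKPs and 10.17, 9.59 and 10.02 in NSCPs. Its groups overlapped through NSCP replicate 2, and the difference of 0.19 did not pass (95% interval -0.17 to 0.56, adjusted p = 0.361), but did without that array (adjusted p = 0.0381). Acvr2a, a type II activin receptor, was at 9.31, 8.88 and 9.29 against 9.08, 8.75 and 9.04, with a difference of -0.20 that did not pass (95% interval -0.57 to 0.17). Acvr1b, the type I activin receptor, did not pass either (-0.19, 95% interval -0.50 to 0.12). Acvr2b, the second type II activin receptor, was higher in NSCPs by 0.50 (SE 0.14, adjusted p = 0.0179). That call was lost without SKP replicate 2 (adjusted p = 0.0570) and without NSCP replicate 3 (adjusted p = 0.0637), which left 1 higher receptor.

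Antagonists went both ways, with 5 lower and 3 higher in NSCPs among 9. Sostdc1, a secreted binder of BMPs that also modulates Wnt signals, was at 5.74, 6.29 and 6.22 in SKPs and 11.64, 11.76 and 11.52 in NSCPs. All NSCP arrays were far above all SKP arrays, a difference of 5.56 (SE 0.17, adjusted p = 7.76e-08) or 47.0-fold. The SKP mean of 6.09 lay above the background level but below the 99th percentile of the olfactory and vomeronasal genes, 6.47. Bambi, which encodes a membrane decoy receptor without a kinase, was at 6.05, 6.04 and 5.99 against 6.80, 6.95 and 6.997 (0.89, SE 0.11, adjusted p = 3.16e-04). Fst, which encodes follistatin, the main inhibitor of activins, was higher too, by 0.75 (SE 0.19, adjusted p = 0.0115). Follistatin and its activin target Inhba thus differed in opposite directions.

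All other antagonists but Nog were lower in NSCPs. Chrd, the gene of the BMP trap chordin, was at 7.63, 8.19 and 7.76 in SKPs and 5.69, 5.65 and 6.09 in NSCPs (-2.05, SE 0.18, adjusted p = 3.55e-05). Fstl1, a secreted follistatin-like glycoprotein of mesenchyme, was at 10.57, 10.77 and 10.80 against 8.71, 8.87 and 9.04 (-1.84, SE 0.13, adjusted p = 9.91e-06). Fstl3, which binds activin and myostatin, was at 7.52, 8.16 and 7.90 against 6.49, 7.09 and 6.78 (-1.07, SE 0.20, adjusted p = 0.00292). For each of these 3 the lowest SKP array lay above the highest NSCP array. Grem1, the BMP antagonist gremlin, was spread in SKPs at 7.40, 5.73 and 6.99 and lay at 5.51, 5.27 and 5.07 in NSCPs. Its difference of -1.43 (SE 0.37, adjusted p = 0.0139) was lost without NSCP replicate 2 (adjusted p = 0.0561). Chrdl1, a relative of chordin, was lower by a difference of -0.65 (SE 0.18, adjusted p = 0.0182), which was lost without NSCP replicate 1 (adjusted p = 0.0629). Nog, the BMP antagonist noggin, was near background at 5.53, 5.18 and 5.74 in SKPs and 5.30, 5.07 and 5.26 in NSCPs, and did not pass (-0.27, 95% interval -0.64 to 0.10).

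**Figure D3:**
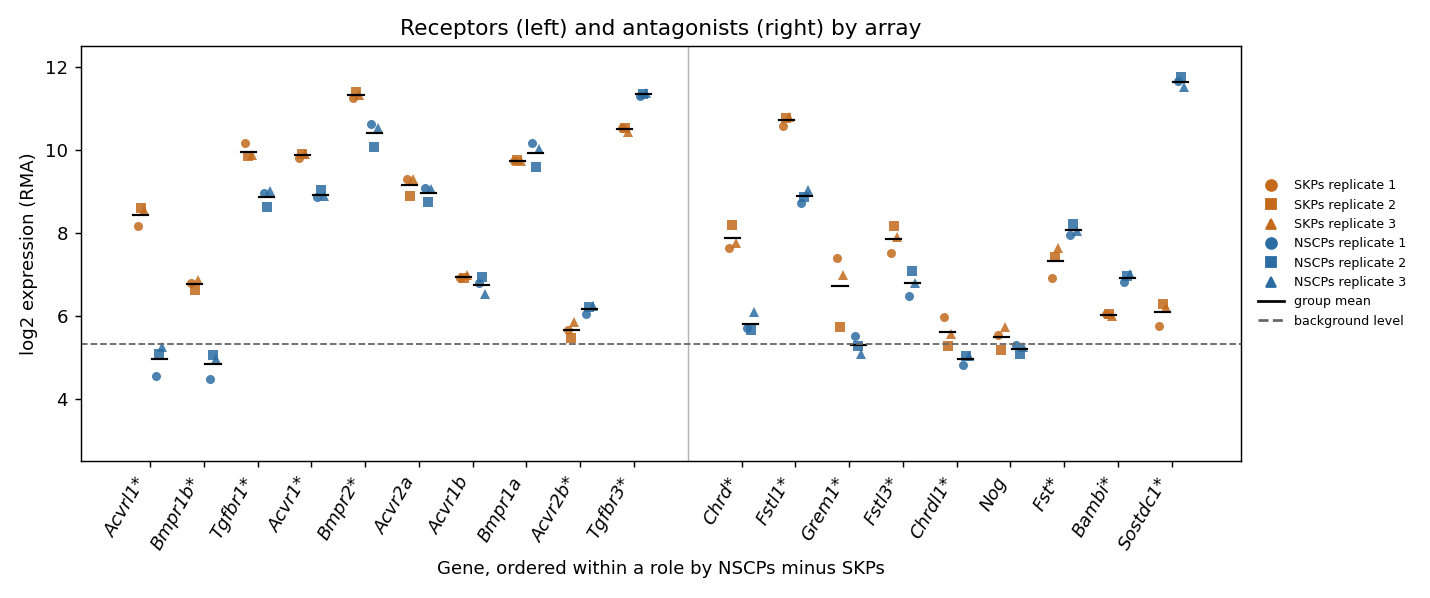
Log2 expression (RMA) of the 10 measured receptors and 9 antagonists is plotted for each array, with black lines for group means, a dashed line at the background level and an asterisk for called genes. Acvrl1 and Bmpr1b fall below the dashed line in NSCPs, group means of the other receptors differ by at most 1.09, and Sostdc1 is the 1 antagonist with a large excess in NSCPs.

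Differences among the Smads lay between -0.78 and 0.81, and none reached 2-fold. Smad3, a carrier of TGF-beta and activin signals, was at 8.30, 8.20 and 8.38 in SKPs and 7.54, 7.57 and 7.43 in NSCPs (-0.78, SE 0.12, adjusted p = 7.34e-04). Its partner Smad2 was at 9.13, 9.10 and 9.17 against 9.54, 9.32 and 9.51. Smad2 had no overlap between groups but a difference of 0.32 just short of the threshold (95% interval 0.05 to 0.59, adjusted p = 0.0537), and it passed without NSCP replicate 2 (adjusted p = 0.0225). Smad6, the inhibitory Smad of BMP receptors, was at 7.93, 7.77 and 7.78 in SKPs and 8.35, 9.0001 and 8.54 in NSCPs (0.81, SE 0.17, adjusted p = 0.00550). Smad7, the inhibitory Smad of TGF-beta receptors, was at 6.30, 5.78 and 6.35 against 5.51, 5.61 and 5.40 (-0.64, SE 0.17, adjusted p = 0.0147). The inhibitory Smads therefore differed in opposite directions over the 6 arrays. The Smad7 call was lost without SKP replicate 3 (adjusted p = 0.0605) and without NSCP replicate 3 (adjusted p = 0.0544).

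Among the Smads of BMP signals, Smad1 was at 9.12, 9.10 and 9.27 in SKPs and 8.67, 8.92 and 8.58 in NSCPs (-0.44, SE 0.13, adjusted p = 0.0255). Smad5 was at 10.26, 10.34 and 10.32 against 10.39, 10.22 and 10.34, with overlapping groups and a difference of 0.01 (95% interval -0.25 to 0.27). Smad9 was within background. The shared Smad4 was lower by a difference of -0.36 (SE 0.12, adjusted p = 0.0321). Calls of small differences among Smads depended on single arrays. Of the 4 lower Smads, 2 were called without SKP replicate 1 or NSCP replicate 1 and 1 without SKP replicate 3 or NSCP replicate 3, Smad3 being called each time, and 2 Smads were called higher without NSCP replicate 2.

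All 4 Id genes were higher in NSCPs. They encode small helix-loop-helix proteins without a DNA-binding region, which hold back basic helix-loop-helix transcription factors and keep precursors from differentiating. Id4 was at 6.10, 5.56 and 6.02 in SKPs and 10.84, 11.02 and 11.10 in NSCPs, a difference of 5.10 (SE 0.17, adjusted p = 1.08e-07) or 34.2-fold. Id3 was at 7.23, 6.68 and 7.07 against 9.70, 10.23 and 9.90 (2.95, SE 0.19, adjusted p = 4.12e-06), 7.74-fold higher. Id1 was at 8.22, 7.22 and 7.71 against 9.39, 9.97 and 9.67 (1.96, SE 0.25, adjusted p = 3.13e-04), 3.89-fold higher. The smallest difference was that of Id2, at 6.03, 5.57 and 5.99 against 6.30, 6.59 and 6.55 (0.62, SE 0.16, adjusted p = 0.0135). In each gene the groups did not overlap, and the 4 calls held whichever array was left out. SKP means of all 4 lay above the background level, but those of Id2 (5.86) and Id4 (5.89) were below the 99th percentile of the olfactory and vomeronasal genes, 6.47. The BMP ligands Bmp2, Bmp3, Bmp4 and Bmp7 were lower in the NSCP arrays in which these 4 targets were higher. Schwann cell markers, 10 of 10, were higher with the Id genes, and their part in this result was not tested.

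**Figure D4:**
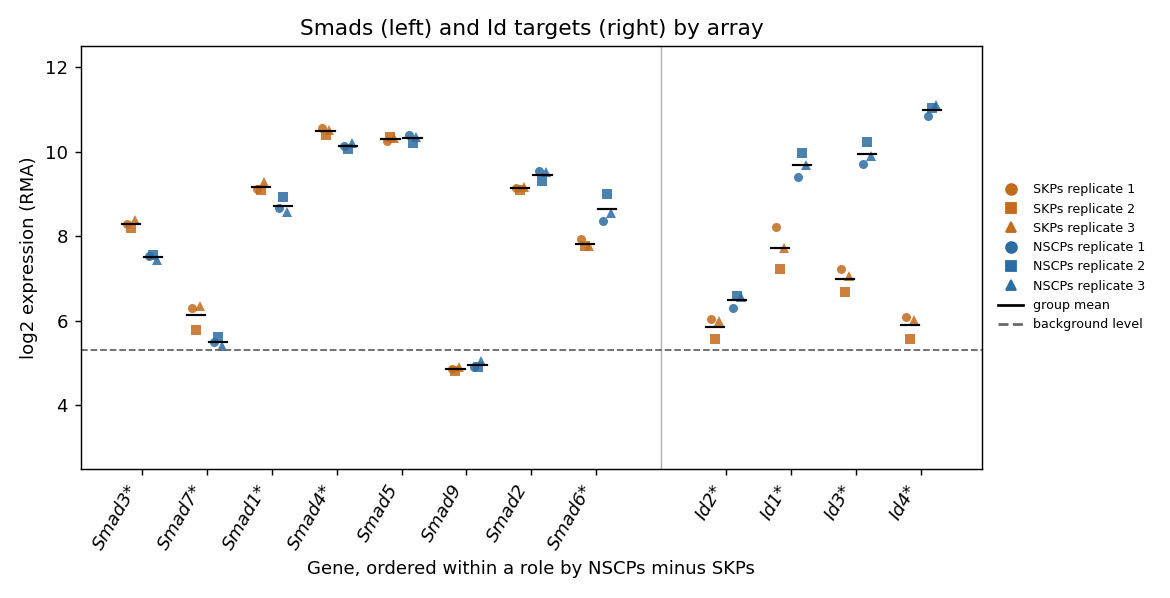
Log2 expression (RMA) of the 8 Smads and 4 Id genes is plotted for each array, with black lines for group means, a dashed line at the background level and an asterisk for called genes. Group means of the Smads lie within 1 unit of each other, while those of Id1, Id3 and Id4 are separated by 1.96 to 5.10 in favour of NSCPs.

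The proximal promoters of the 4 Id genes are shown because the genes moved together, with that of Inhba, which moved furthest the other way. Of the 51 genes 39 had an entry in the RefSeq promoter table for GRCr8, and Sostdc1 is named only. Each sequence is the 250 bases before the RefSeq start, 5′ to 3′ on the gene's strand. Both strands were searched for TATAAA (the core of the TATA box), CCAAT (the box of that name), GGCGCC (a GC-rich element bound by Smad1 and Smad5), CAGAC (Smad box) and TGACG (core of a cAMP response element). No motif contains another. Capitals mark every match.
Id1: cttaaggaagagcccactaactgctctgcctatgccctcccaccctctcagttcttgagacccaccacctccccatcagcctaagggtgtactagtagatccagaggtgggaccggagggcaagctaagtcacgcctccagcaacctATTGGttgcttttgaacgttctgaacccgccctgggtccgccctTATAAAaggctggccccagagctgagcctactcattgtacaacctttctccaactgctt
Id2: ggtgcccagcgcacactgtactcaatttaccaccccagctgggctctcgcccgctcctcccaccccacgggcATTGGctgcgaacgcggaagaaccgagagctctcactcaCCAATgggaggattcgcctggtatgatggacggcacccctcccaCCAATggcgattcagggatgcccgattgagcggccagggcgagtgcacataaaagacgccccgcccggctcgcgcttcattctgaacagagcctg
Id3: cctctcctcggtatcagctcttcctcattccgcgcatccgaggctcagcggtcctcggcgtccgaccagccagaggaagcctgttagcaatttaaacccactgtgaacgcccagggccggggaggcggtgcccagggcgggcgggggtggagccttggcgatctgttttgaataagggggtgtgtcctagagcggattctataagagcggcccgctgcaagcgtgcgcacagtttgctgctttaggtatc
Id4: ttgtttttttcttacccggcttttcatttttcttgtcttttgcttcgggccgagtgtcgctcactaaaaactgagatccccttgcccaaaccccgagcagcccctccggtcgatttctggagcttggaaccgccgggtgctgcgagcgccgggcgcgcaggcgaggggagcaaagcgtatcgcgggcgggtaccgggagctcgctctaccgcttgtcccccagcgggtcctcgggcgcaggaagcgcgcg
Inhba: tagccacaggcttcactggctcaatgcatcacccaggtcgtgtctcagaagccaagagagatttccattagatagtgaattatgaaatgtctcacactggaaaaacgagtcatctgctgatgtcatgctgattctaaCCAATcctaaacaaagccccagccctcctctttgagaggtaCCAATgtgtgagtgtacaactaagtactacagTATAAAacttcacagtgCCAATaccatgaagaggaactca
These are chr3:161671314-161671563 (plus strand), chr6:47470996-47471245 (minus), chr5:153656041-153656290 (plus), chr17:16598294-16598543 (minus) and chr17:53804509-53804758 (minus).

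The Id1 sequence held a TATA box from 59 to 54 bases before the start and a CCAAT box on the opposite strand from 103 to 99. Id2 held 3 CCAAT boxes, the nearest from 95 to 91 bases before the start, and Inhba held a TATA box from 40 to 35 bases before it with 3 CCAAT boxes. Id3 and Id4 held none of the 5 motifs. The GC-rich element, the Smad box and the cAMP core were in none of these 5 windows, which says only that those letters are not there. Among 33469 promoters of the table, windows of the same length held the TATA box in 12.9%, the CCAAT box in 34.0%, the GC-rich element in 8.7%, the Smad box in 42.9% and the cAMP core in 18.2%. GC content was 54.8% for Id1, 62.8% for Id2, 61.2% for Id3, 62.8% for Id4 and 43.6% for Inhba, against a median of 51.2%.

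The SKP arrays differed among themselves more in this pathway than in most genes. The SD over the 3 SKP arrays was at least 0.5 for 7 of the 48 genes (14.6%), against 4.70% of all genes. In NSCPs it was so for 0 of the 48, against 447 of all 18166 genes. The median SD in NSCPs was 0.16 over the 48 and 0.17 over all genes. The 7 were 6 ligands (Gdf10, Bmp2, Bmp3, Bmp4, Bmp6 and Bmp7) and the antagonist Grem1. SKP replicate 2 was the array farthest from the middle one in 6 of the 7, against 47.2% of the 853 genes with so large an SD. It was lowest for Bmp2, Bmp3, Bmp4, Bmp7 and Grem1 (71.4% of the 7) and highest for Gdf10 and Bmp6 (28.6%). These shares were near those of the 853 genes, 63.5% and 24.0%. For Bmp2 it lay 1.73 below replicate 3.

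The Id genes followed the same array. Id1, Id2, Id3 and Id4 each had their lowest SKP value in replicate 2 and their highest in replicate 1. Over the 48 genes replicate 2 was the lowest SKP array for 26 (54.2%), against 36.0% of all genes. Leukocyte markers, all but Cd68, were lowest in replicate 2 as well, at a mean of 9.74 against 10.79 in replicate 1 and 10.13 in replicate 3. The mean of adipocyte markers was also lowest there, at 7.73 against 8.19 and 8.06. Adipoq (9.80, 8.58 and 9.90), Fabp4, Pparg, Plin1 and Cidec were lowest in replicate 2, but Lpl, Cebpa and Lep were not. Keratinocyte means were 5.55, 5.17 and 5.42, with Cdh1 at 7.10, 5.62 and 6.69, while Krt1 and Tp63 were not lowest there. Endothelial means were 5.30, 5.16 and 5.25, with Flt1 at 7.07, 5.26 and 6.85. Cdh5, Tek, Emcn and Cldn5 were instead highest in replicate 2. Means of Schwann cell, fibroblast and pericyte markers were not lowest in replicate 2. The part of any of these cell types in the spread was not tested. Without SKP replicate 2, 23 genes of the pathway were lower and 10 higher, against 23 and 12 with it.

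**Figure D5:**
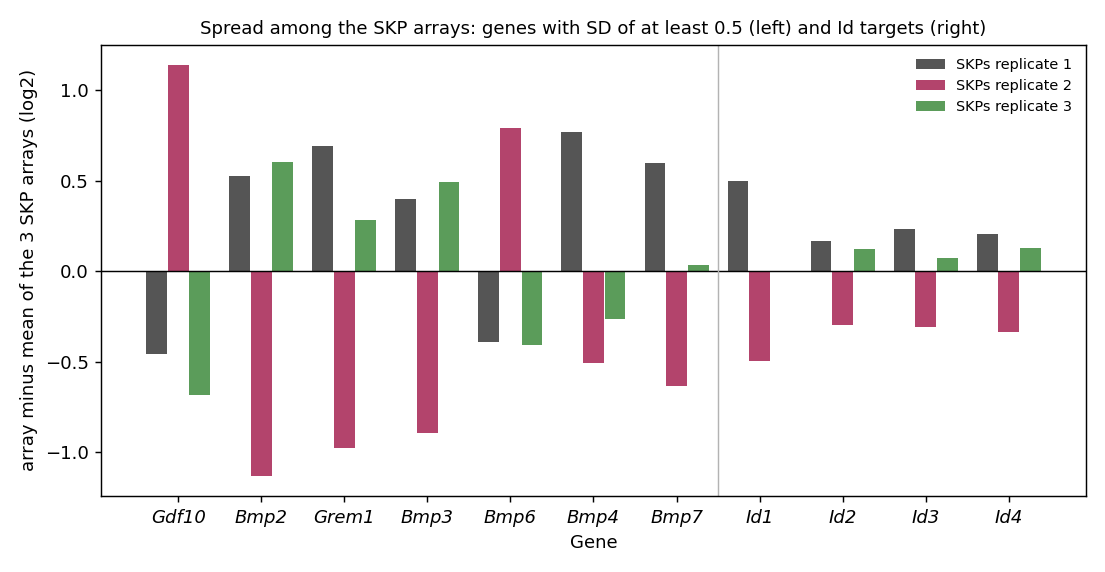
Bars give each SKP array minus the mean of the 3 SKP arrays on the log2 scale, for the 7 genes with an SD of at least 0.5 and for the 4 Id genes. The bars of replicate 2 point down for Bmp2, Bmp3, Bmp4, Bmp7, Grem1 and all 4 Id genes, and up for Gdf10 and Bmp6.

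Other genes of the pathway were taken from 7 lists with 134 genes, of which 118 were measured, 53 lower (44.9%) and 18 higher (15.3%) in NSCPs, against 18.6% and 25.2% of all genes. Of the 16 remaining family ligands measured 18.8% were called, below the 43.7% of all genes: Gdf15, a stress-induced ligand, was lower (-1.11), and Gdnf (0.54), a neurotrophic ligand, and Inhbc (0.55), another activin subunit, were higher. Without SKP replicate 1 no ligand of that list was higher, 1 was without NSCP replicate 1 or NSCP replicate 2, and 2 were lower without SKP replicate 2. Of 5 other receptors 2 were called (40%), both lower, the BMP co-receptor gene Rgma (-3.32) and the neuropilin gene Nrp1 (-1.87). By limma 0 of the 5 were higher, 1 was at an unadjusted p under 0.05, and 1 was called higher without SKP replicate 2 or NSCP replicate 1.

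Secreted antagonists and modulators beyond the 9 above had 11 lower (64.7%) and 4 higher (23.5%) among 17. The small proteoglycan genes Dcn (-8.49), Aspn (-6.28) and Bgn (-5.34) were lower, with NSCP means of Dcn and Aspn within background. Dcn is also on the fibroblast list. The tolloid-like protease gene Tll1 (1.92), Htra1 (1.33), a secreted protease gene, and Twsg1 (0.77), which encodes a chordin partner, were higher. Genes of latent TGF-beta storage and activation had 10 lower (62.5%) and 2 higher (12.5%) among 16. Mmp9 (-3.76), Mmp14 (-2.74) and Mmp2 (-2.74), all matrix metalloproteinases, were lower. Itgb8, which encodes the beta subunit of an integrin that activates latent TGF-beta, was 22.3-fold higher in NSCPs (7.53 in SKPs against 12.01, a difference of 4.48, SE 0.22, adjusted p = 1.02e-06), and the thrombospondin gene Thbs2 was higher by 0.92. The genes of the latent TGF-beta binding proteins, which tether TGF-beta in the matrix and were singled out after their values were seen, differed among themselves: Ltbp2 (-2.65) and Ltbp3 (-1.69) were lower, and Ltbp1 (0.14) and Ltbp4 (0.21) were not called.

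Genes induced by TGF-beta in other settings were lower in 17 of 23 (73.9%) and higher in 1 (4.35%). The lower ones with the largest differences were Lrrc15 (-6.54), a membrane protein gene of activated fibroblasts, the fibronectin gene Fn1 (-5.23) and Tgfbi (-3.39), which encodes a secreted matrix protein. Atf3, a stress-induced transcription factor gene, was higher (1.80). Col1a1, Col1a2 and Col3a1 of this list are also fibroblast markers, and 2 genes were higher without SKP replicate 2 or NSCP replicate 1. Genes induced by BMPs in other settings went both ways, 4 higher (21.1%) and 6 lower (31.6%) among 19. Atoh8 (1.21), Hey1 (1.04) and Tbx2 (0.68), all transcription factor genes, were higher, and the osteoblast regulator Runx2 (-2.75), Zfp423 (-2.52) and Hey2 (-1.71) were lower. The median difference was -1.54 for the TGF-beta induced list and 0.10 for the BMP induced list, against 0.14 for all genes.

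Intracellular regulators of Smads had 5 higher (22.7%) and 6 lower (27.3%) among 22, and the share called, 50%, was near that of all genes (43.7%). Zeb2 (1.30), a Smad-binding repressor needed for Schwann cell differentiation, Fkbp1a (1.18), which holds type I receptors inactive, and the Smad ubiquitin ligase gene Smurf1 (0.98) were higher. Zeb1 (-0.75), a relative of Zeb2, the co-repressor gene Tgif1 (-0.65) and the deubiquitinase gene Usp9x (-0.64) were lower. Zeb1 and Zeb2 thus differed in opposite directions.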

How the data were processed

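Expression was measured on arrays in 3 SKP and 3 NSCP cultures, from 400 ng of total RNA each, per the labels' protocols. The authors deposited 1 log2 expression value for each probe set and array, made with oligo and RMA, per the submitters' processing notes without versions. Quantile normalization within RMA would hide a shift of all genes in 1 group. No label or file gives a scan date or batch.

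Of 36685 probe sets the platform table gave 18511 a single symbol, 575 several and 17599 none. Per gene the probe set with the highest mean was kept, which leaves 18166 genes, and all 48 measured members matched RefSeq by Entrez ID. No value was filtered or changed. The fit was limma 3.58.1 (lmFit, eBayes, two-sided) in R 4.3.3 with p-values adjusted over all genes by Benjamini-Hochberg, and was tested on simulated data. Figures used matplotlib 3.10.9 in Python 3.11.15. Members and lists were chosen with earlier results of these data known, so counts are descriptions beside those of all genes. Full values are given for the called members with the largest differences (up to 6 per role, 4 for Smads and Id genes) and up to 2 uncalled members per role with the highest mean. For other lists up to 3 called genes per direction are named. Alternatives left out each array, added the replicate number as a block, and changed normalization, filters, probe set choice, prior and threshold.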

Additional observations from a re-analysis of the deposited data

How the results depend on the processing

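Replicate numbers 1 to 3 occur in both groups, but deviations of same-numbered arrays from their group means correlated by only 0.04, 0.05 and 0.03 over genes, so the numbers were not taken as pairs, although each array correlated best with its own number. With the replicate number as a block, 11 members were higher and 23 lower (4378 and 3303 of all genes), and 1 ligand was higher, since Gdf11 lost its call; no other member changed its call.

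The 9 lower ligands, 5 lower receptors, 3 higher antagonists and 4 higher Id genes were called with any single array left out. Over the arrays left out in turn, higher ligands ranged from 0 to 1, higher receptors from 1 to 3, higher Smads from 1 to 2, lower Smads from 1 to 4, higher genes of the other ligands from 0 to 2, lower ones from 1 to 2, higher genes of the other receptors from 0 to 1 and higher TGF-beta induced genes from 1 to 2.

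Renewed quantile normalization gave 0 higher ligands and 1 higher gene among the other receptors. Arrays centred on their median gave 2 higher Smads, 1 higher other receptor and 2 higher TGF-beta induced genes. With genes above background in a group, 1 ligand and 2 Smads were higher; with genes above the median of all probe sets, 1 ligand, 2 Smads and 1 other ligand; with the trended and robust prior, 2 Smads. The mean of all probe sets and the dimmest one each gave 2 higher TGF-beta induced genes. Adjustment over all probe sets gave 1 higher ligand and 2 lower Smads.

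At an adjusted p under 0.01, 2886 of all genes were higher and 7 members higher, with 0 higher ligands, 1 higher receptor, 3 lower antagonists, 1 lower Smad, 0 higher other ligands and 3 lower intracellular regulators. Limma's treat against a 2-fold change called 714 genes higher and 1044 lower, 4 members higher and 9 lower. By role these were 0 ligands higher and 5 lower, 0 receptors higher and 2 lower, 1 antagonist higher and 2 lower, and 0 Smads in either direction. Of the other pathway genes 3 were higher and 31 lower under treat: 0 ligands in either direction, 1 antagonist or modulator higher and 7 lower, 1 storage gene higher, 0 intracellular regulators in either direction, 11 TGF-beta induced genes lower, and 0 BMP induced genes higher and 2 lower.

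At the 90th percentile of the olfactory genes (4.86) 4 members had an NSCP mean within background, and at the 99th (6.47) 20 did, with 13 SKP means. Uncalled differences near 0 changed sign: Smad5 to -0.025 with renewed quantile normalization and Bmp5 to 0.013 with median centring. With single arrays left out, Smad5 ranged from -0.026 to 0.063, Bmp5 from -0.134 to 0.018 and Gdf6 from -0.283 to 0.068. No called member changed direction under any alternative run. Beyond the construction of each alternative (fewer arrays, fewer or more genes tested, a stricter threshold), the cause of these changes was not tested.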
